A study of Mus musculus with 9 samples.

Results

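Immediate early genes are transcribed within minutes of a stimulus without new protein synthesis, and 10 of them were followed here in sorted NSCs (neural stem cells), since enzymatic dissociation is known to induce several. They were Fos, Fosb, Fosl2, Jun, Junb, Jund, Egr1, Atf3, Ier2 and Dusp1, taken by their exact symbols from deposited tables of counts and FPKM (fragments scaled by transcript length and library size) over 38197 gene symbols. All 10 symbols were found, and 9 of them passed the filter on low counts, which Junb did not. Wild-type mouse ESCs of strain 129 were differentiated in monolayer into ventral hindbrain NSCs, with retinoic acid (RA) and SAG, an agonist of the Shh receptor component Smo, applied from 0 to 3 DDC (days in differentiation conditions) by the labels, while the study's methods place the change of medium somewhat later. At 4.5DDC, 5.5DDC and 6.5DDC the cultures were dissociated enzymatically and NSCs were taken by magnetic sorting for prominin-1, which neural progenitors carry on their surface, and their polyadenylated RNA was sequenced. Each time point had 3 libraries, and the comparisons asked how the levels differed between time points, between libraries of 1 time point and between replicate numbers. A library held between 11066572 and 25506192 counts. One field of the sample labels gives the times as 4, 5 and 6 days. The labels do not say whether replicates came from separate differentiations, so p-values measure only the spread between these libraries, part of which may be technical.

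Every library came from dissociated and sorted cells, so the level of these genes in the culture and any effect of the sort cannot be told apart. In bulk RNA, fewer cells with a transcript and less of it per cell cannot be told apart either. The sorted cells carried neural progenitor markers. Over the 9 libraries Sox2 lay between 78.2 and 95.9 FPKM, Nes between 138 and 172 FPKM, and Prom1, which encodes prominin-1, between 62.8 and 207 FPKM. Of the other progenitor markers listed, Vim lay between 1235 and 2455 and Fabp7 between 142.5 and 911 FPKM. Nkx6-1 lay between 14.55 and 58.7, Nkx2-2 between 7.28 and 18.8, Sox1 between 10.2 and 14.7 and Sox3 between 1.44 and 14.4 FPKM. Among neuron markers, Stmn2 lay between 17.15 and 199 FPKM and Map2 between 46.1 and 199 FPKM. Pou5f1, a marker of undifferentiated ESCs, stayed under 3 counts in all 9 libraries.

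Fos and Jun proteins pair through leucine zippers to form the transcription factor AP-1, which binds short sites in many promoters and enhancers. In most cells growth factors, calcium or cell stress act through MAP kinases on serum response factor (SRF) with its Elk partners and on CREB, which bind the CArG box and the cAMP response element near the start sites of these genes. The resulting mRNAs are unstable, so their level follows recent signalling.

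The 10 genes were expressed at low to moderate levels in the sorted NSCs. Their summed level was 58.2, 46.8 and 55.7 FPKM in replicates 1, 2 and 3 of 4.5DDC. It was 126, 70.4 and 71.2 FPKM at 5.5DDC and 70.1, 87.9 and 102 FPKM at 6.5DDC, so that replicate 1 of 5.5DDC was the highest of the 9 libraries and all 3 libraries of 4.5DDC were lower than the other 6. Fos and Egr1 together made up 17.01% of the sum in replicate 2 of 4.5DDC and between 43.0% and 61.6% in the other 8 libraries. Averaged over the 9 libraries, the order of FPKM levels was Egr1 (21.8), Fos (18.3), Jun (9.87), Ier2 (9.75), Dusp1 (8.44), Atf3 (3.50), Jund (3.09), Fosl2 (1.01), Fosb (0.352) and Junb (0.296). At 4.5DDC, neighbours in that time point's order from Ier2 through Fos, Egr1 and Dusp1 to Jun overlapped in their libraries, and Jun lay above Atf3 without overlap. At 6.5DDC, Egr1 and Fos overlapped, whereas Fos lay above Jun in all libraries.

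**Figure D1:**
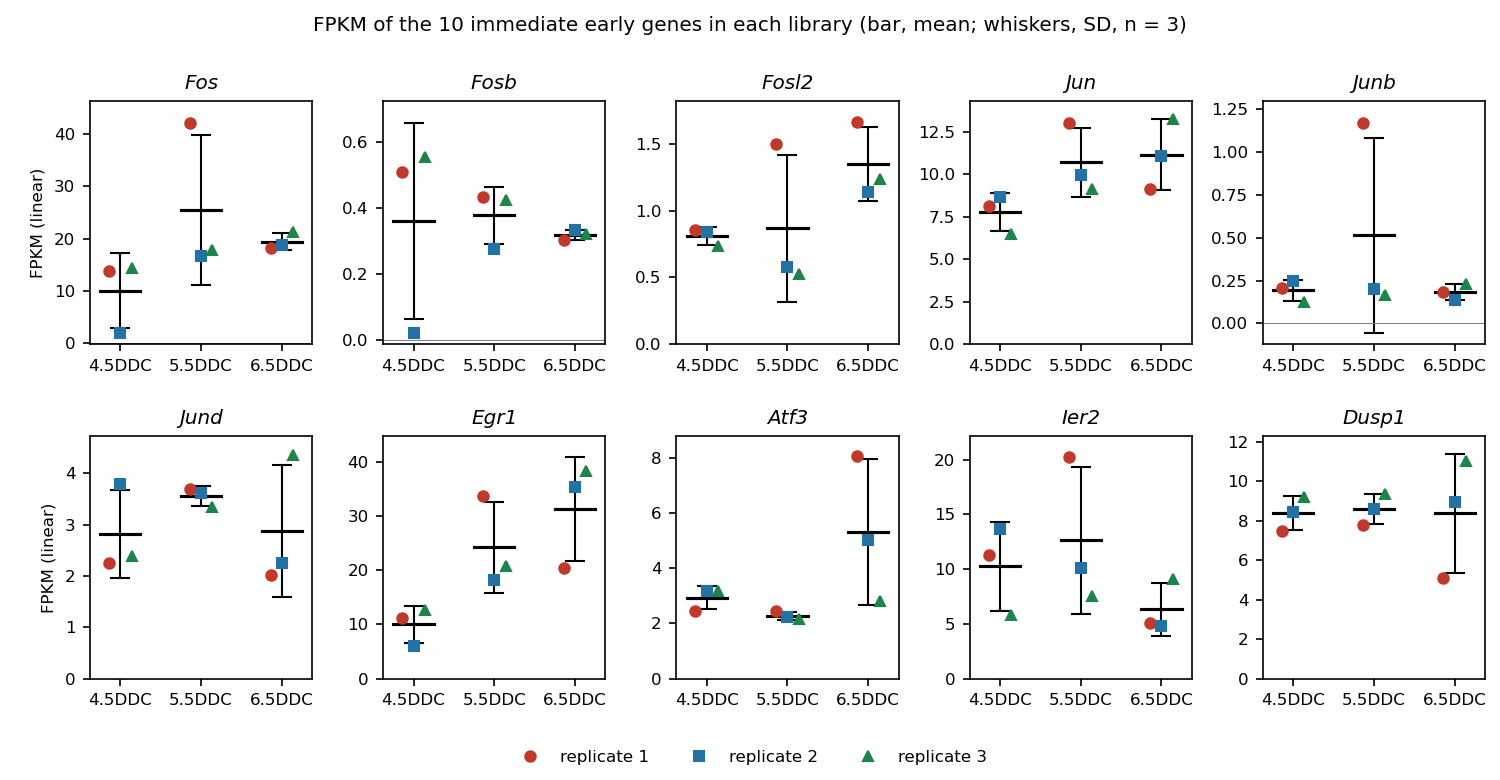
FPKM of each of the 10 genes (linear axis, one scale per gene) in the 3 libraries of 4.5DDC, 5.5DDC and 6.5DDC, with replicates as coloured symbols, the mean as a bar and the SD (n = 3) as whiskers. Fos and Fosb are lowest in replicate 2 of 4.5DDC, at 1.90 and 0.0189 FPKM, Egr1 has all 3 libraries of 6.5DDC above those of 4.5DDC, and Junb reaches 1.17 FPKM in replicate 1 of 5.5DDC.

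A pair of libraries stood apart in these genes, replicate 2 of 4.5DDC and replicate 1 of 5.5DDC, and values without both are given where they matter. To describe this, the log2 CPM (library-scaled counts, TMM, with a prior count) of a gene in a library was set against the mean of the other two libraries of its time point and ranked among the 14742 genes tested. In replicate 2 of 4.5DDC, Fosb was the second lowest and Fos the fourth lowest of all these genes, with differences of -3.64 and -2.96 on the log2 scale. The lowest was Egr2, another immediate early factor and also a regulator of hindbrain segments, at -3.8. Egr1 differed by -1.01 in that library, at rank 326 from the lowest. The other 6 genes tested were not low there, with differences between -0.04 for Atf3 and 0.69 for Ier2. Only 2.28% of the genes tested lay more than 1 log2 unit below the other two libraries, compared with 3 of the 9 immediate early genes. The median of the 9 was -0.02, with 4 above and 5 below, and the median over all genes was 0.01.

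The counts behind these values were few for Fosb and Egr2. Replicate 2 of 4.5DDC held 52 Fos counts, compared with 622 and 525 in replicates 1 and 3, a ratio per library total of 0.130 (95% exact interval 0.0964 to 0.172). For Fosb it held 1 count, compared with 43 and 39, a ratio of 0.0349 with an interval of 0.000874 to 0.200. For Egr2 it held 2 counts and the other two libraries 132 together, a ratio of 0.0434 with an interval of 0.00520 to 0.160. These intervals cover counting error only, and the library and the genes were chosen after their values were seen. The total of this library, 11244489 counts, was the lowest of its time point and the second lowest of the 9. In it Jun, Ier2 and Dusp1 were at 8.65, 13.7 and 8.41 FPKM.

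In replicate 1 of 5.5DDC the departure went the other way and took in other genes: 8 of the 9 immediate early genes tested lay above the mean of the other two libraries, compared with 7463 of all 14742 genes, with a median of 0.45 on the log2 scale, compared with 0.01 over all genes. Of these 8, Fosb lay slightly below replicate 3 in TMM-scaled CPM, though not in FPKM. Fosl2 was 2.68-fold higher than in the other two libraries, Ier2 2.31-fold, Fos 2.14-fold and Egr1 1.74-fold, while Dusp1 was 1.18-fold lower. Junb had 65 counts there, compared with 5 and 4 in replicates 2 and 3, a ratio per library total of 6.41 (95% exact interval 3.18 to 14.6). This library had the largest total and differed widely in other genes too: 7.33% of all genes tested lay more than 1 log2 unit below and 5.07% above the other two libraries. The nearest of the 9 to either end was Fosl2, at rank 272 from the highest. At 6.5DDC, where replicate 1 departed in even more genes (8.41% below and 4.84% above), Fos differed by no more than 0.15 on the log2 scale in any library and Fosb by no more than 0.11. In that replicate 1, however, 7 of the 9 genes lay below the mean of the other two libraries, with a median of -0.33, and Dusp1 differed by -1.05, Egr1 by -0.79 and Atf3 by 0.98.

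**Figure D2:**
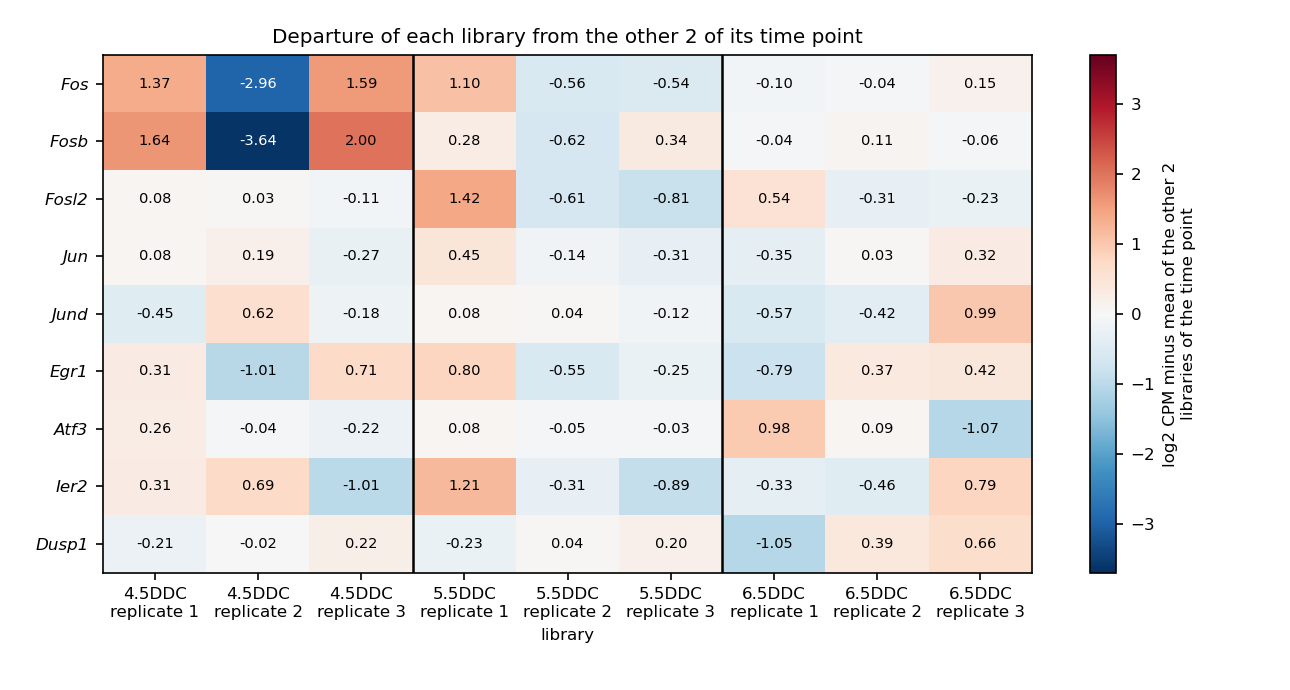
Difference in log2 CPM between each library and the mean of the other two libraries of its time point, for the 9 genes tested (rows) in the 9 libraries (columns), from blue (lower) to red (higher). The darkest cells are Fosb (-3.64) and Fos (-2.96) in replicate 2 of 4.5DDC, while Jun, Jund, Atf3, Ier2 and Dusp1 are pale there or above 0.

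**Figure D3:**
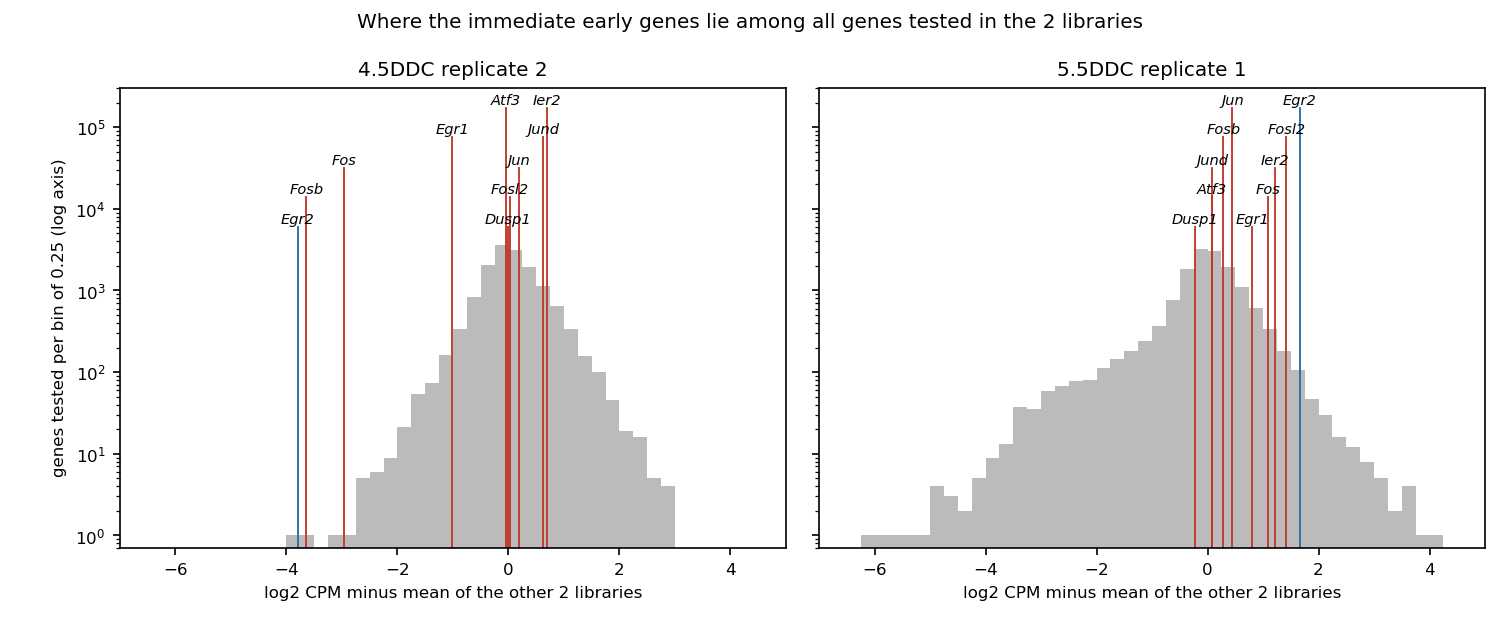
Number of genes tested (log axis) by their difference in log2 CPM from the other two libraries of the time point, in replicate 2 of 4.5DDC and replicate 1 of 5.5DDC, with red lines at the 9 immediate early genes tested and a blue line at Egr2. In the first library Egr2, Fosb and Fos lie at the lower end of all 14742 genes, and in the second most immediate early genes lie to the right of 0 but inside the distribution.

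Fos, the founding member of the family and the main inducible partner of Jun, was among the most abundant of the 10. Its level was 13.8, 1.90 and 14.5 FPKM in replicates 1, 2 and 3 of 4.5DDC, 42.0, 16.7 and 17.8 FPKM at 5.5DDC and 18.2, 18.8 and 21.2 FPKM at 6.5DDC. All 3 values of 4.5DDC lay below those of both later time points without overlap, and the 3 libraries of 6.5DDC lay close together. Fos is on chromosome 12 (GRCm38, 85473890 to 85477273, plus strand), with 4 annotated transcripts of 3 or 4 exons. From 4.5DDC to 5.5DDC its log2 fold change was 1.14 ± 0.59 (SE), with adjusted p = 0.390 by the edgeR quasi-likelihood test, Benjamini-Hochberg adjusted. From 4.5DDC to 6.5DDC it was 0.91 ± 0.59, with adjusted p = 0.299 by the same edgeR test. Without replicate 2 of 4.5DDC and replicate 1 of 5.5DDC these changes were smaller, at 0.18 and 0.415.

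Fosb, which also pairs with Jun and accumulates with repeated stimulation in neurons, was far less abundant. Its level was 0.509, 0.0189 and 0.555 FPKM at 4.5DDC, 0.432, 0.276 and 0.424 at 5.5DDC and 0.302, 0.332 and 0.320 at 6.5DDC. Its log2 changes from 4.5DDC to 5.5DDC and to 6.5DDC were -0.01 and -0.26, and without replicate 2 of 4.5DDC and replicate 1 of 5.5DDC -0.646 and -0.791, none of which passed the test in edgeR. The time points overlapped, and apart from replicate 2 of 4.5DDC the libraries held between 15 and 52 counts. Over the 9 libraries, log2 CPM of Fos and Fosb correlated with Pearson's r = 0.88, as a description of libraries that share the low one. The ratio of Fos to Fosb in FPKM was 27.2, 100.4 and 26.1 in replicates 1, 2 and 3 of 4.5DDC and between 42.0 and 97.1 at the later time points, and the second of these values rests on 1 Fosb count. Fosl2, which encodes Fra-2 and lacks the strong activation domain of Fos, lay between 0.734 and 0.854 FPKM at 4.5DDC, between 0.521 and 1.498 at 5.5DDC and between 1.14 and 1.66 at 6.5DDC. All libraries of 6.5DDC were above those of 4.5DDC, but the change of 0.73 ± 0.39 did not pass the test (adjusted p = 0.211, edgeR quasi-likelihood with Benjamini-Hochberg adjustment).

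Promoters of Fos and Fosb, which departed together in replicate 2 of 4.5DDC, are shown with that of Egr2, the gene farthest below the other two libraries there, chosen after its values were seen, and with that of Dusp1, which did not depart. Each runs 5′ to 3′ from 250 bases before to 50 bases after the start site in RefSeq on GRCm38.p6, with matches in capitals to the CArG box, to TGACGTCA (the cAMP response element), to TGANTCA (the AP-1 site) or to TATAAA, searched on both strands. The Fos window is chr12:85473640-85473939 on the plus strand, and that of Fosb is chr7:19309996-19310295 on the minus strand. The Egr2 window, 1 of 5 listed for that gene, is chr10:67537619-67537918 on the plus strand, and that of Dusp1 is chr17:26508423-26508722 on the minus strand. The Egr2 windows differ in their matches, and that at chr10:67535249-67535548 held none.
Fos: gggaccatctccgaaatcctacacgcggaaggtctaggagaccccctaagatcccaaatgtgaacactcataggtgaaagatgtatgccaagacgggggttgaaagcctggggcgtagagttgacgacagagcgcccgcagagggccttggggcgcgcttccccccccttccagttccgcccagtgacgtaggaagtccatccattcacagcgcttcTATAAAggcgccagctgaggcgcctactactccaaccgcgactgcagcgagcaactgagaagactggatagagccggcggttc
Fosb: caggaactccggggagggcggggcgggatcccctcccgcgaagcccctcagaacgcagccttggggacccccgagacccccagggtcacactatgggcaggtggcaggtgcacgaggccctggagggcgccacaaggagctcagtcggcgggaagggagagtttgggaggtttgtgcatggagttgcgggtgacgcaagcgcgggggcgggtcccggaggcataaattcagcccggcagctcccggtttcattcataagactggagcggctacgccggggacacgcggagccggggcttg
Egr2: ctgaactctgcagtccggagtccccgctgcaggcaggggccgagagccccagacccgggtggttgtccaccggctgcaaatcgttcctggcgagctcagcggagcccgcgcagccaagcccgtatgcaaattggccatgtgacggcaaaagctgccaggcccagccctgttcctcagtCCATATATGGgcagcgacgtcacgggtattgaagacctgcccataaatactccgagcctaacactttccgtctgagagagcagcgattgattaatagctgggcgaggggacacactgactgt
Dusp1: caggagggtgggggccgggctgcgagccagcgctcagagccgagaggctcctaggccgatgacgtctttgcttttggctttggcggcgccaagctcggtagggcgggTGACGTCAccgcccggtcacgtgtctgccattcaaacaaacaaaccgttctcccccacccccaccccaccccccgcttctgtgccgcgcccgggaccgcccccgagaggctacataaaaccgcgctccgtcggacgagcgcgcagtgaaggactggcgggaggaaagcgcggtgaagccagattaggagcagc
The capitals are a TATAAA starting 33 bases before the Fos start, a CArG box starting 72 bases before that of Egr2 and a cAMP response element starting 143 bases before that of Dusp1, and the Fosb window held no match. Of the 10 genes 8 had a window in the table, all but Egr1 and Ier2, and the table lists 32851 promoters in all. The window of Jund, chr8:70697489-70697788, lies outside its gene model (70698949 to 70700616). TATAAA was in 2 of the 8 (Fos and Junb) and in 13.6% of all promoters, and the cAMP response element in 1 of 8 and in 1.79%. Neither the CArG box, found in 1.63% of all promoters, nor the AP-1 site, found in 7.81%, was in any of the 8 windows. A match is a description of letters, and sites farther from the start were not searched. Only full matches to these patterns were counted. Variants that differ by a base, such as tgacgta in the Fos window, were not, so a window without a match may still hold such a site.

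Jun, the DNA-binding partner common to most AP-1 dimers, varied little between libraries of the same time point. Its level was 8.12, 8.65 and 6.49 FPKM at 4.5DDC, 13.02, 9.98 and 9.15 at 5.5DDC and 9.11, 11.1 and 13.3 at 6.5DDC. All libraries of the later time points were above those of 4.5DDC. The change from 4.5DDC to 6.5DDC was 0.51 ± 0.19 on the log2 scale, higher in 3 of 3 libraries, with adjusted p = 0.0819 by the edgeR quasi-likelihood test, Benjamini-Hochberg adjusted. The adjusted p ranged from 0.0482 to 0.190 over 19 alternatives and passed 0.05 with DESeq2 (0.0482) and in edgeR without replicate 1 of 6.5DDC (0.0488). Jun is a gene of 1 exon on chromosome 4 (GRCm38, 95049034 to 95052222, minus strand), of which the antisense gene Junos shares 7.28% of the exonic bases.

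Jund, the Jun protein that is kept at a steady level in most cells and restrains growth, was 2.25, 3.799 and 2.39 FPKM at 4.5DDC, 3.71, 3.63 and 3.34 at 5.5DDC and 2.03, 2.26 and 4.37 at 6.5DDC. The time points overlapped, and its 3 log2 fold changes lay between -0.30 and 0.33. The antisense gene Gm11175 shares 52.6% of the exonic bases of Jund but held between 0 and 2 counts. Junb, a weaker activator that can counter Jun, was near the floor. It had 8, 6 and 4 counts at 4.5DDC, 65, 5 and 4 counts at 5.5DDC and 5, 5 and 8 counts at 6.5DDC. In FPKM these were between 0.127 and 0.246 in 8 libraries and 1.17 in replicate 1 of 5.5DDC. Taking 3 counts as the floor, which is between 0.118 and 0.271 CPM in these libraries, Junb was above it in all 9 libraries. Prdx2, on the opposite strand, shares 7.52% of the exonic bases of Junb and held between 3673 and 7810 counts. Whether counting used the strand is not given in the sources used here, so reads from those bases cannot be told apart.

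Egr1, a zinc finger factor induced through SRF and Elk proteins, was the only one of the 9 genes tested that was called between time points in edgeR. Its level was 11.2, 6.06 and 12.7 FPKM in replicates 1, 2 and 3 of 4.5DDC (mean 9.99 ± 3.49, SD, n = 3). It was 33.8, 18.1 and 20.7 FPKM at 5.5DDC (mean 24.2 ± 8.38, n = 3) and 20.4, 35.3 and 38.3 FPKM at 6.5DDC (mean 31.3 ± 9.57, n = 3). All 6 libraries of the later time points were above all 3 of 4.5DDC, while 5.5DDC and 6.5DDC overlapped. From 4.5DDC to 6.5DDC Egr1 rose 3.07-fold, a log2 fold change of 1.62 ± 0.35 (SE), with adjusted p = 0.0129 by the edgeR quasi-likelihood test, Benjamini-Hochberg adjusted. From 4.5DDC to 5.5DDC the log2 fold change was 1.22 ± 0.34 with adjusted p = 0.183 by the same edgeR test, and with DESeq2 adjusted p = 0.0239. Without replicate 2 of 4.5DDC and replicate 1 of 5.5DDC this change was 0.631 with adjusted p = 0.555 (edgeR, Benjamini-Hochberg). From 5.5DDC to 6.5DDC it was 0.40 ± 0.34 with adjusted p = 0.536, and without those libraries 0.719 with adjusted p = 0.259 (edgeR, Benjamini-Hochberg).

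The rise of Egr1 from 4.5DDC to 6.5DDC was called in 18 of 19 alternatives, with log2 fold changes between 1.35 and 1.86 and adjusted p between 7.07e-05 and 0.0505. The exception was the fit without replicate 2 of 6.5DDC, with 1.5 and adjusted p = 0.0505 (edgeR, Benjamini-Hochberg). Without replicate 2 of 4.5DDC and replicate 1 of 5.5DDC it was 1.35 with adjusted p = 0.0200 (edgeR, Benjamini-Hochberg). The replicates differed in its size: the log2 ratio of TMM-scaled CPM was 0.92 in replicate 1 and 1.91 between the means of replicates 2 and 3. Whether these differ was not tested.

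Atf3, an ATF family factor induced by cell stress and by axon injury, was highest in a single library of the last time point. Its level was 2.45, 3.17 and 3.17 FPKM at 4.5DDC, 2.44, 2.22 and 2.17 at 5.5DDC and 8.06, 5.02 and 2.82 at 6.5DDC. All 3 values of 5.5DDC lay below those of both other time points, narrowly so for 4.5DDC. From 5.5DDC to 6.5DDC the change was 0.97 ± 0.33 on the log2 scale with adjusted p = 0.193 (edgeR quasi-likelihood, Benjamini-Hochberg). In 6.5DDC the 3 libraries were spread over a range in which replicate 1 was 1.97-fold above and replicate 3 2.09-fold below the other two. In those libraries Fos and Fosb were close together, so the spread of Atf3 was not shared with them. Atf3 lies on chromosome 1 (GRCm38, 191170296 to 191218039, minus strand).

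Ier2, a small nuclear protein gene of 1 exon on chromosome 8 (GRCm38, 84661331 to 84662852, minus strand), was 11.3, 13.7 and 5.78 FPKM at 4.5DDC, 20.3, 10.1 and 7.58 at 5.5DDC and 5.05, 4.85 and 9.14 at 6.5DDC. It was the gene with the highest mean of the 10 at 4.5DDC, though it lay below Fos (13.8 and 14.5 FPKM) in replicates 1 and 3. At 6.5DDC it was the fifth, with overlap between the time points. Its change from 5.5DDC to 6.5DDC was -0.98 ± 0.42 with adjusted p = 0.252 (edgeR quasi-likelihood, Benjamini-Hochberg), and without replicate 1 of 5.5DDC the log2 change was -0.45. Dusp1, a phosphatase that switches off MAP kinases and is itself induced by them, was the steadiest in its means. Its mean was 8.37 ± 0.858 FPKM at 4.5DDC, 8.58 ± 0.773 at 5.5DDC and 8.36 ± 3.01 at 6.5DDC (SD, n = 3), and its log2 fold changes lay between -0.04 and 0.07. At 6.5DDC replicate 1 had 5.10 FPKM and replicates 2 and 3 had 8.95 and 11.0 FPKM.

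Between 4.5DDC and 5.5DDC none of the 9 genes tested was called, and 11 (0.0746%) of all 14742 genes were, at adjusted p under 0.05 in edgeR's quasi-likelihood test. At an unadjusted p under 0.05 there were 2 of the 9 (Jun and Egr1) and 15.4% of all genes, and DESeq2 called Egr1, 1 of 9 compared with 495 of all 14742 genes, and limma voom none. With the replicate number as a block, again none was called, compared with 1.44% of all genes. The libraries of the 2 time points did not overlap for 4 of the 9 (Fos, Jun, Egr1 and Atf3) and for 25.4% of all genes. The median log2 fold change of the 9 was 0.28, with 7 higher and 2 lower, compared with 0.01 and 51% higher over all genes. Without replicate 1 of 5.5DDC it was 0.146, without replicate 2 of 4.5DDC 0.489, and without both 0.139, with 5 higher and 4 lower in the first and last case. The direction of Fosb in this interval turned with the scaling, from -0.01 with TMM to 0.03 with library totals, and its value was -0.549 without replicate 2 of 4.5DDC. Without replicate 1 of 5.5DDC the values of Fosl2 and Ier2 were -0.601 and -0.244, compared with 0.08 and 0.28 with it.

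Between 5.5DDC and 6.5DDC none of the 9 was called either, compared with 0.224% of all genes in edgeR and 1.33% with the block. DESeq2 and limma voom called none of the 9, compared with 4.55% and 0.38% of all genes. An unadjusted p under 0.05 was found for 2 of the 9 (Atf3 and Ier2) and for 18.5% of all genes. Only Atf3 did not overlap, 1 of 9 compared with 25.4% of all genes, and the median log2 fold change was -0.04. The sign of that median depended on single libraries: it was 0.237 without replicate 1 of 5.5DDC, 0.191 without replicate 1 of 6.5DDC and -0.213 without replicate 3 of 6.5DDC, and 0.236 without both libraries that stood apart. From 4.5DDC to 6.5DDC 1 of the 9 (Egr1) was called, compared with 18.7% of all genes in edgeR and 23.2% with the block, which also called Egr1 alone. No overlap was found for 4 of the 9 (Fos, Fosl2, Jun and Egr1) and for 35.1% of all genes. The median was 0.51, with 7 higher and 2 lower (Fosb and Ier2), compared with 0.00 over all genes, and it was 0.304 without replicate 1 of 6.5DDC. The 3 comparisons share libraries.

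**Figure D4:**
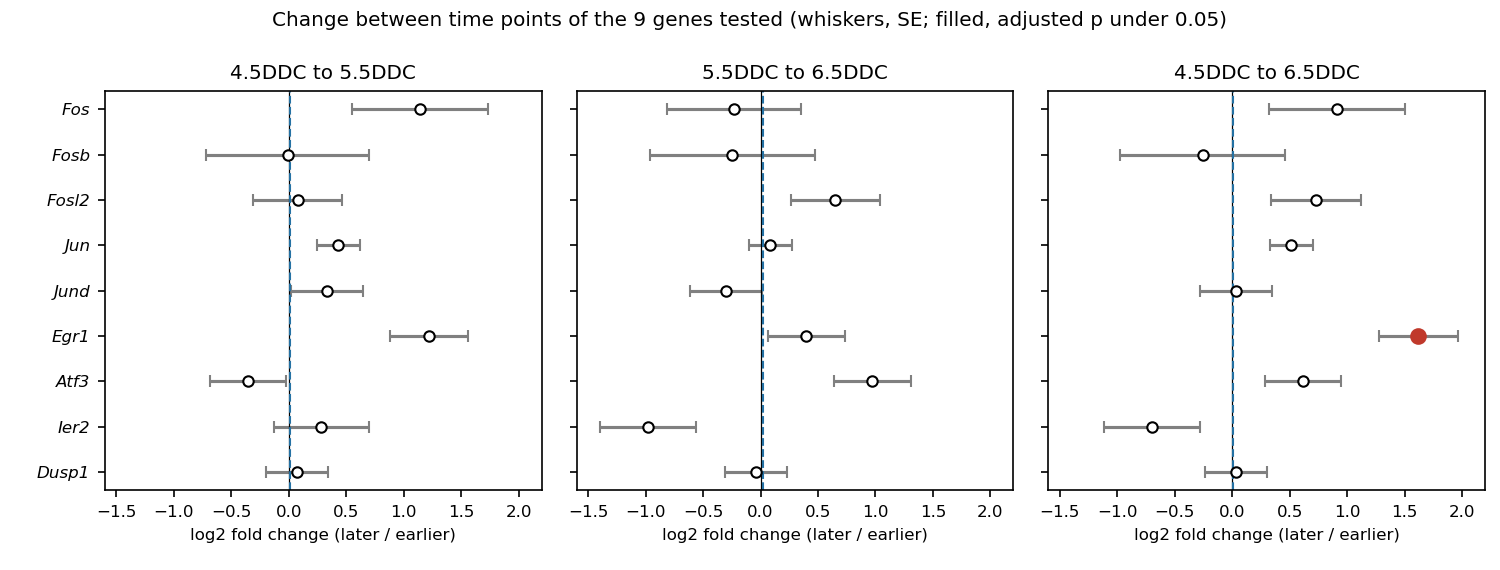
Log2 fold change of the 9 genes tested between each pair of time points (points; later over earlier time point), with SE as whiskers, the median of all genes tested as a dashed blue line and genes with an adjusted p under 0.05 (edgeR) filled in red. Only Egr1 from 4.5DDC to 6.5DDC, at 1.62, is filled, and the widest whiskers belong to Fos and Fosb.

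The replicate number was tested as well, in a fit with time point and replicate as factors. None of the 9 genes was called between replicate numbers in edgeR, DESeq2 or limma voom. Of all genes 5.4% were called in edgeR, 8.51% with DESeq2 and 4.84% with limma voom. On leaving out 1 library the edgeR share lay between 1.37% (without replicate 1 of 5.5DDC) and 8.41% (without replicate 3 of 6.5DDC). Without both libraries that stood apart it was 0.00671%. At an unadjusted p under 0.05 there were 0 of the 9 and 15.5% of all genes. The spread within time points was nevertheless wide for some of them. The SD of log2 CPM pooled over the 3 time points was 1.23 for Fosb and 1.053 for Fos, above 97.9% and 96.3% of all genes tested, and 0.22 for Jun, above 33.3%. The median of the 9 was 0.51, compared with 0.29 over all genes. For Fos the SD was 1.71 at 4.5DDC, 0.63 at 5.5DDC and 0.09 at 6.5DDC, and for Fosb 2.11, 0.36 and 0.06. The spread of both was widest at 4.5DDC, where replicate 2 held 52 Fos counts and 1 Fosb count. Genes of unlike abundance were ranked together, and log2 values spread more at low counts.

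Other genes of the same pathways were read from gene lists. Of 17 further immediate early transcription factor genes 13 passed the filter. Of these 13, 2 rose (Nr4a2 and Klf6) and 1 fell (Csrnp1) from 4.5DDC to 6.5DDC in edgeR, where 18.7% of all genes were called. The replicate block, DESeq2 and limma voom also called Bhlhe40, chosen after its values were seen. In the shorter intervals edgeR and limma voom called none. Of the 13, 3 had an unadjusted p under 0.05 in each interval, compared with 15.4% and 18.5% of all genes. DESeq2 called 1 (Nr4a2) and 2 (Csrnp1 and Klf6), compared with 3.36% and 4.55% of all genes. Without replicate 1 of 5.5DDC edgeR also called Nr4a2 from 4.5DDC to 5.5DDC (2.14, adjusted p = 0.0367, Benjamini-Hochberg). Their median change from 4.5DDC to 6.5DDC was 0.42. Nr4a2, an orphan nuclear receptor that is both activity-induced and expressed in developing neurons, was 2.59, 1 and 1.18 FPKM at 4.5DDC and 5.45, 15.7 and 20.5 FPKM at 6.5DDC. Its change was 2.96 ± 0.42 with adjusted p = 0.00273 (edgeR, Benjamini-Hochberg), and it was called in all 19 alternatives. Klf6, the most abundant of the list, was between 13.97 and 15.7 FPKM at 4.5DDC and between 21.7 and 29.9 FPKM at 6.5DDC, a change of 0.75 ± 0.15 with adjusted p = 0.0107 (edgeR, Benjamini-Hochberg). Without replicate 2 of 4.5DDC its adjusted p was 0.0510. Csrnp1, induced by Axin and by growth signals, went from between 2.196 and 4.09 FPKM to between 0.901 and 1.17 FPKM, a change of -1.66 ± 0.33 with adjusted p = 0.00988 (edgeR, Benjamini-Hochberg), and was called in all 19 alternatives.

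Egr2, chosen after its values were seen, had its lowest and its highest value of the 9 libraries where Fos had them. It was 1.74, 0.0545 and 1.45 FPKM at 4.5DDC, 4.15, 0.740 and 0.909 at 5.5DDC and 1.53, 0.829 and 1.25 at 6.5DDC. At 6.5DDC, however, it was highest in replicate 1, where Fos was lowest. In replicate 1 of 5.5DDC Egr2 was 3.16-fold, Nr4a1 3.69-fold, the synaptic gene Arc 2.78-fold and the matrix gene Cyr61 2.37-fold above the other two libraries. These genes were chosen after their values were seen, and others of the same lists lay below there, with log2 differences of -1.51 for Nr4a2, -1.39 for Bhlhe40, -1.79 for Sgk1, -1.40 for Zfp36 and -1.20 for Plk3. In that library 9 of 13 further factor genes were above and 15 of 26 effector genes below, with medians of 0.56 and -0.17. Of all 14742 genes 7463 were above and 7279 below, with a median of 0.01. In replicate 2 of 4.5DDC Cyr61 was 2.11-fold lower, while Nr4a1 and Arc were lowest in replicate 3 and highest in replicate 1 of that time point. Srf was 26.8 FPKM in replicate 1 of 5.5DDC and between 9.74 and 13.6 FPKM in the other 8 libraries, replicate 2 of 4.5DDC (11.8 FPKM) included. Srf was chosen after its values were seen, as the highest of 19 upstream kinase and SRF pathway genes in that measure in replicate 1 of 5.5DDC. Its log2 difference from the other 2 libraries there was 1.12, and the lowest was -1.21 for Mapk10. Of the 19 genes 11 were above and 8 below, with a median of 0.08. Whether Srf had a part in the Fos level was not tested.

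Of 26 immediate early effector genes, all of which passed the filter, 3 rose from 4.5DDC to 6.5DDC (Plk2, Btg2 and Ptgs2) in edgeR and none fell, 3 of 26 compared with 18.7% of all genes, with a median of 0.23. DESeq2 called 6, of which 1 (Plk3) fell, compared with 25% of all genes called by DESeq2, and limma voom the same 3 genes as edgeR. Ptgs2 was no higher than 0.633 FPKM in any library and, like Plk3, was chosen after its values were seen. Plk2, a kinase of the stress response, changed by 0.76 ± 0.20 with adjusted p = 0.0259 (edgeR, Benjamini-Hochberg) and was called in 15 of 19 alternatives. The 4 others left out replicate 1 or 2 of 4.5DDC (adjusted p = 0.0718 and 0.0731) or replicate 2 or 3 of 6.5DDC (0.102 and 0.0571). Btg2, an antiproliferative gene of neurogenic progenitors, changed by 0.48 ± 0.14 with adjusted p = 0.0413 (edgeR, Benjamini-Hochberg), and 0.0558 with the replicate block. It was called in 8 of 19 alternatives and lost on leaving out any 1 library except replicate 1 of 5.5DDC, with adjusted p up to 0.127 (without replicate 2 of 4.5DDC). With the block the list had 2 genes higher (Plk2 and Ptgs2) and 1 lower (Plk3), compared with 23.2% of all genes called with it. The most abundant gene, Zfp36l1, which promotes decay of unstable mRNAs, was between 58.4 and 96.7 FPKM. Between replicate numbers edgeR called 2 of the 26 (Arc and Sgk1), compared with 5.4% of all genes. DESeq2 called 4, compared with 8.51% of all genes, and limma voom Sgk1 alone, compared with 4.84%.

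Of 15 other AP-1 and ATF/CREB genes 11 passed the filter, and Atf6 rose by 0.65 ± 0.15 and Atf1 fell by 0.69 ± 0.21 (log2) over the 4.5DDC to 6.5DDC interval (adjusted p = 0.0182 and 0.0455, edgeR with Benjamini-Hochberg adjustment), 2 of 11 compared with 18.7% of all genes. Atf6 was called in 16 of 19 alternatives and not without replicate 2 of 4.5DDC or replicate 2 of 6.5DDC (adjusted p = 0.0637 and 0.0738), and Atf1 in 8 of 19. The call of Atf1 was lost on leaving out any 1 library except replicate 1 of 6.5DDC, with adjusted p up to 0.142 (without replicate 2 of 6.5DDC). Atf4, the stress-induced factor and the most abundant of the list, was between 49.3 and 92.9 FPKM, and Fosl1 was under 3 counts in all libraries. The list had no call in the shorter intervals by edgeR, DESeq2 or limma voom, and DESeq2 called 3.36% and 4.55% of all genes there. In each interval 1 of the 11 had an unadjusted p under 0.05, compared with 15.4% and 18.5% of all genes.

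Genes upstream of these and in their feedback had 2 calls in each of 2 lists from 4.5DDC to 6.5DDC in edgeR, where 18.7% of all genes were called. Of 14 MAP kinase phosphatase and feedback genes tested, Dusp14 rose and Spred2, an inhibitor of Ras signalling, fell from 4.5DDC to 6.5DDC, by 0.73 ± 0.20 and -0.63 ± 0.15 on the log2 scale (adjusted p = 0.0329 and 0.0198, edgeR with Benjamini-Hochberg adjustment). Dusp14 was called in 11 and Spred2 in 15 of 19 alternatives, and Dusp14 was lost on leaving out any 1 library except replicate 1 of 5.5DDC and replicate 1 of 6.5DDC, with adjusted p up to 0.0934 (without replicate 1 of 4.5DDC). Spred2 was lost without replicate 2 of 4.5DDC (0.0709) or replicate 2 of 6.5DDC (0.0544). With the block, Dusp8 was called as well, and DESeq2 also called Dusp5, which fell. These were 3 of 14 in each, compared with 23.2% and 25% of all genes. Dusp8 and Dusp5 were chosen after their values were seen. From 5.5DDC to 6.5DDC DESeq2 called Spred2, which fell, 1 of 14 compared with 4.55% of all genes. The most abundant, Dusp6, a MAP kinase phosphatase whose mRNA follows growth factor signalling, was 26.7, 31.8 and 43.2 FPKM at 4.5DDC, 63.3, 40.8 and 39.8 at 5.5DDC and 36.9, 73.0 and 62.9 at 6.5DDC, with overlap between time points. Of 19 upstream kinase and SRF pathway genes Mapk10, the neuronal JNK, rose by 1.46 ± 0.35 and Map2k2 fell by 1.41 ± 0.37 (log2) over the 4.5DDC to 6.5DDC interval (adjusted p = 0.0208 and 0.0292, edgeR with Benjamini-Hochberg adjustment). Mapk10 was called in 15 and Map2k2 in 13 of 19 alternatives, and without replicate 2 of 4.5DDC the values were 1.55 (adjusted p = 0.0616) and -0.911 (adjusted p = 0.100). Mapk10 was also lost without replicate 1 of 4.5DDC (0.0580), replicate 2 of 6.5DDC (0.0783) or replicate 3 of 6.5DDC (0.0507), and Map2k2 without replicate 1 of 6.5DDC (0.0590) or replicate 2 of 6.5DDC (0.110). Map2k2 was also lost with limma voom and library totals (0.0537), which called Mapk14 and Mapk10, and in a fit of the 6 libraries compared (0.0547). With the block, 3 of the 19 were called (Mapk10, Map2k2 and Mapk14), compared with 23.2% of all genes, and from 5.5DDC to 6.5DDC Mapk10, compared with 1.33%. DESeq2 called the same 3, compared with 25% of all genes, and from 5.5DDC to 6.5DDC Map2k2, compared with 4.55%. Between replicate numbers edgeR called 2 of the 19 (Mapk8 and Mapk10) and 2 of the 14 (Dusp4 and Dusp8), compared with 5.4% of all genes. There limma voom called the same genes, and DESeq2 also Mapk11 and Spred3, compared with 4.84% and 8.51%. In replicate 1 of 4.5DDC, 5.5DDC and 6.5DDC Mapk10 differed from the other 2 libraries by -0.60, -1.21 and -0.84 on the log2 scale.

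Heat shock genes, some of which dissociation also induces, were read in the same libraries, and whether they differed from the immediate early genes was not tested. Of 11 in the list 9 passed the filter, and the inducible Hsp70 genes Hspa1a and Hspa1b did not, at no more than 0.275 and 0.218 FPKM in any library. All 9 tested were lower at 5.5DDC than at 4.5DDC, with a median of -0.54, compared with 0.01 and 51% higher over all genes. None of these was called by edgeR, where 3 of 9 had an unadjusted p under 0.05, compared with 15.4% of all genes. DESeq2 called Hspd1, 1 of 9 compared with 3.36% of all genes, and limma voom none. From 4.5DDC to 6.5DDC the mitochondrial chaperone gene Hspd1 fell by 1.02 ± 0.23 on the log2 scale, with adjusted p = 0.0151 by edgeR with Benjamini-Hochberg adjustment, a call that did not hold without replicate 2 of 4.5DDC (adjusted p = 0.0601) or replicate 2 of 6.5DDC (0.0538). It was the only call in the list, 1 of 9 compared with 18.7% of all genes. The most abundant gene, Hsp90ab1, was between 1291 and 1657 FPKM. In replicate 2 of 4.5DDC the median difference of the 9 from the other two libraries was 0.08, and in replicate 1 of 5.5DDC it was -0.48 with 8 of 9 lower. In replicate 1 of 4.5DDC it was also -0.48, with 9 of 9 lower and 7 of 9 immediate early genes above. In replicate 1 of 6.5DDC the median of the heat shock genes was 0.36, with 8 of 9 higher and 7 of 9 immediate early genes below. In replicate 3 of 6.5DDC it was -0.32, with 8 of 9 lower and 6 of 9 immediate early genes above.

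Of 9 neural progenitor markers, led by Vim and summing to between 2133 and 3105 FPKM, Prom1 rose and Sox3 and Nkx6-1 fell from 4.5DDC to 6.5DDC in edgeR. Markers of other cells differed between the same libraries, and 1 gene each of the neuron (Map2), mesenchyme (Twist1) and endothelial (Kdr) lists rose in that comparison in edgeR, where 18.7% of all genes were called. With the replicate block, 3 neuron genes (Dcx, Map2 and Stmn2), 5 mesenchyme genes (Col3a1, Pdgfra, Dcn, Lum and Twist1) and 3 endoderm genes (Sox17, Gata4 and Gata6) were called higher, compared with 23.2% of all genes called with it in either direction. In replicate 1, neuron markers were low: the summed level of 7 was 153, 299 and 239 FPKM at 4.5DDC, 151, 397 and 418 at 5.5DDC and 250, 576 and 631 at 6.5DDC. Its most abundant gene was Stmn2, and 5 of the 7 were called between replicate numbers in edgeR, compared with 5.4% of all genes. Of the 9 neural progenitor markers edgeR called 1 (Nkx2-2) between replicate numbers, DESeq2 2 (Nkx2-2 and Fabp7) and limma voom none. DESeq2 called 8.51% of all genes there and limma voom 4.84%. The 7 mesenchyme markers, led by Dcn, summed to 11.95, 24.0 and 32.4 FPKM at 4.5DDC, 19.1, 48.5 and 47.9 at 5.5DDC and 35.6, 102 and 119 at 6.5DDC, and 4 of 7 were called between replicate numbers. The 7 endoderm markers, led by Foxa1, which the floor plate also expresses, were the reverse, with 47.0, 23.9 and 23.9 FPKM, then 45.0, 34.5 and 36.5 FPKM, and then 66.1, 35.9 and 34.9 FPKM, and 3 of the 5 tested were called. Neural crest markers (led by Tfap2a, with Sox10 and Foxd3 under 3 counts in all libraries) summed to no more than 0.621 FPKM, endothelial markers (led by Cdh5) to no more than 8.69 FPKM, blood and microglia markers (led by Csf1r, with Aif1 and Cx3cr1 under 3 counts) to no more than 0.938 FPKM and pluripotency markers (led by Dppa4) to no more than 2.98 FPKM. Replicate 2 of 4.5DDC, where Fos and Fosb were lowest, had the highest neuron marker sum of its time point and a mesenchyme sum between the other two libraries. The sums of neuron and mesenchyme markers were highest at 6.5DDC in replicates 2 and 3, as Egr1 was. Egr1 was next highest, at 33.8 FPKM, in replicate 1 of 5.5DDC, where the neuron sum was the lowest of the 9 libraries. The mesenchyme sum of that library was 19.1 FPKM, the lowest of its time point. Not every marker followed its sum: Twist1 (9.225 FPKM) and Pdgfra (3.956 FPKM) were highest in replicate 1 of 6.5DDC, and Elavl4 (91.4 FPKM) in replicate 3 of 5.5DDC. The part of these cells in the levels of the immediate early genes was not tested.

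**Figure D5:**
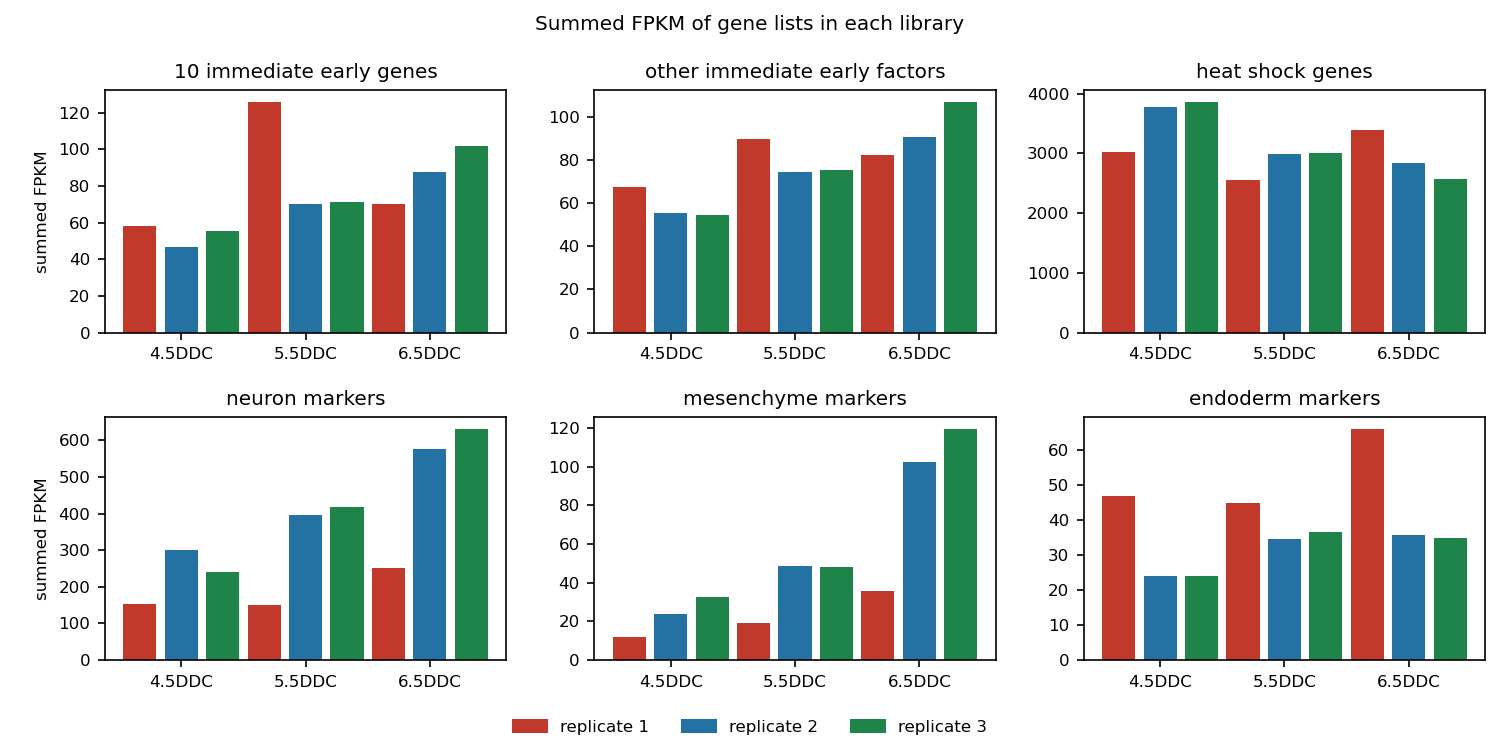
Summed FPKM of 6 lists in each of the 9 libraries (bars from 0, one scale per list, replicates by colour). The 10 immediate early genes peak in replicate 1 of 5.5DDC (126 FPKM), in which neuron (151 FPKM) and mesenchyme markers (19.1 FPKM) are the lowest of their time point.

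The members did not share a single profile over the 9 libraries. Correlated with the mean of the 9 standardized log2 CPM profiles, to which each contributes, Pearson's r was 0.91 for Egr1, 0.88 for Jun, 0.78 for Fos, 0.52 for Fosl2, 0.45 for Fosb, 0.28 for Jund, 0.21 for Dusp1, 0.16 for Ier2 and -0.09 for Atf3. Between members, r was 0.84 for Fos with Egr1 and 0.78 for Jun with Egr1, whereas Atf3 gave -0.77 with Jund and -0.71 with Dusp1. Among 11885 other genes whose mean reached 2 FPKM, the 5 whose log2 CPM correlated most with the members' mean were Hacl1 (r = 0.97), Sfi1 (0.96), Per3 (0.96), Atg14 (0.96) and Zfyve1 (0.95). Per3, a circadian clock gene, was for example 3.89, 2.47 and 2.41 FPKM at 4.5DDC, 6.53, 4.23 and 4.06 at 5.5DDC and 4.27, 4.06 and 4.97 at 6.5DDC. With 9 libraries and 11885 genes, high values of r are found for some genes in any case, and they are given as a description.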

How the data were processed

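Gene counts and FPKM were taken as the authors deposited them, for 9 libraries and 38197 gene symbols. The count table holds the authors' estimated counts, reads per gene symbol from HTSeq 0.6.1 after alignment with TopHat2 2.0.4 to GRCm38, with base calls from bcl2fastq 1.8.3, as the submitters' processing notes give them. The FPKM unit is the deposited Cufflinks 2.1.1 value, used for levels only. A deposited table of log2 values was not used here. Counts were not whole for 98 symbols, none of them among the 10 genes, and were rounded.

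Tests used edgeR 4.0.16 (quasi-likelihood, TMM scaling, filterByExpr, Benjamini-Hochberg adjustment, threshold 0.05) in R 4.3.3, in one fit of the 9 libraries. The tests are two-sided. DESeq2 1.42.0 and limma 3.58.1 (voom) were alternatives, beside other scalings and filters, the replicate number as a block and each library left out. Tables were made in Python 3.11.15 with numpy 2.4.6, pandas 2.3.3 and scipy 1.17.1, and figures with matplotlib 3.10.9. The same replicate number gave r between 0.197 and 0.743 in adjacent time points, but -0.04 and -0.21 for replicates 2 and 3 between 4.5DDC and 6.5DDC, so the block was an alternative. Replicate 1 separated from the others, whereas replicates 2 and 3 paired across numbers as well (r = 0.406 for replicate 3 of 5.5DDC with replicate 2 of 6.5DDC, compared with 0.197).

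The 10 genes and the lists were chosen with earlier results of these data known. The named genes were the 10, the most abundant gene of each pathway list but that of upstream kinases, up to 4 called genes of each list by largest change among those averaging 1 FPKM or more, and the 5 genes that correlated most with the members' mean. Others were chosen after their values were seen. From the list of upstream kinase genes, 1 gene is not reported here and was left out of the counts of that list. Intervals and the floor of 3 counts cover counting error only. The strand used in counting was not known, so counts of genes that overlap on opposite strands are uncertain. Promoters came from RefSeq GRCm38.p6 and gene models from GENCODE M21.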

Additional observations from a re-analysis of the deposited data

How the results depend on the processing

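Among the values of the 9 genes under the alternatives, 478 kept their direction and side of the threshold, 1 no longer passed it, 3 newly passed it and 31 changed direction, and the cause was not tested. Dropping both libraries that stood apart was chosen after seeing the data.

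The number of the 9 genes called from 4.5DDC to 5.5DDC was 0 in edgeR and 1 with DESeq2, where 11 and 495 of all genes were called. From 4.5DDC to 6.5DDC it was 1 in edgeR, 2 with DESeq2 and between 0 and 2 on leaving out 1 library. Of all genes 2761 were called there in edgeR, 3680 with DESeq2, 1126 without replicate 2 of 6.5DDC (0 of the 9) and 3131 without replicate 1 of 6.5DDC (2 of the 9).

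The log2 fold changes below had the other sign in edgeR with TMM. With both libraries that stood apart left out they were 0.236 for Fos from 5.5DDC to 6.5DDC, -0.592 for Fosl2 from 4.5DDC to 5.5DDC, -0.0061 for Ier2 from 4.5DDC to 5.5DDC, 0.0935 for Atf4 from 4.5DDC to 5.5DDC, -0.0228 for Zfp36l1 from 4.5DDC to 5.5DDC, 0.0126 for Spred2 from 4.5DDC to 5.5DDC, 0.106 for Map2k2 from 4.5DDC to 5.5DDC, 0.34 for Sfi1 from 5.5DDC to 6.5DDC and 0.167 for Per3 from 5.5DDC to 6.5DDC. With upper quartile scaling they were 0.0199 for Fosb from 4.5DDC to 5.5DDC and 0.0201 for Spred2 from 4.5DDC to 5.5DDC. With scaling by library totals they were 0.0335 for Fosb from 4.5DDC to 5.5DDC and 0.0181 for Spred2 from 4.5DDC to 5.5DDC. With no filter they were 0.0108 for Fosb from 4.5DDC to 5.5DDC, 0.0147 for Spred2 from 4.5DDC to 5.5DDC and 0.00755 for Sfi1 from 5.5DDC to 6.5DDC. With a filter of 1 CPM in 3 libraries they were 0.0136 for Fosb from 4.5DDC to 5.5DDC, 0.0185 for Spred2 from 4.5DDC to 5.5DDC and 0.0102 for Sfi1 from 5.5DDC to 6.5DDC. With the replicate block they were 0.134 for Fosb from 4.5DDC to 5.5DDC, -0.0637 for Fosl2 from 4.5DDC to 5.5DDC, -0.02 for Dusp1 from 4.5DDC to 6.5DDC and 0.0539 for Sfi1 from 5.5DDC to 6.5DDC. With limma voom and library totals together they were 0.764 for Fosb from 4.5DDC to 5.5DDC, 0.502 for Fosb from 4.5DDC to 6.5DDC, -0.0107 for Dusp1 from 4.5DDC to 6.5DDC, 0.0305 for Spred2 from 4.5DDC to 5.5DDC and -0.00335 for Zfyve1 from 5.5DDC to 6.5DDC. With RLE scaling they were 0.0108 for Sfi1 from 5.5DDC to 6.5DDC. With DESeq2 they were 0.0115 for Sfi1 from 5.5DDC to 6.5DDC.

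On leaving out 1 library, the direction changed in at least 1 case for these log2 fold changes, given as lowest and highest value. From 5.5DDC to 6.5DDC they were -0.418 to 0.237 for Fos, -0.0197 to 0.251 for Jun, -0.248 to 0.235 for Dusp1, -0.124 to 0.0283 for Hsp90ab1, -0.00997 to 0.519 for Hacl1, -0.209 to 0.341 for Sfi1, -0.24 to 0.169 for Per3 and -0.0638 to 0.226 for Zfyve1. From 4.5DDC to 5.5DDC they were -0.549 to 0.46 for Fosb, -0.601 to 0.329 for Fosl2, -0.244 to 0.539 for Ier2, -0.0426 to 0.0364 for Spred2 and -0.591 to 0.234 for Map2k2. From 4.5DDC to 6.5DDC they were -0.792 to 0.217 for Fosb, -0.381 to 0.262 for Jund, -0.177 to 0.304 for Dusp1 and -0.138 to 0.0786 for Zfp36l1.

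Depth limits Junb and Fosb most, with as few as 4 counts and 1 count in a library. Leaving out a library leaves 2 in its time point.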
